A study of Mus musculus with 12 samples.

Results

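Genes of the route by which leukaemia inhibitory factor (LIF) acts on embryonic stem (ES) cells were followed across 12 arrays: the receptor genes Lifr and Il6st, the kinase genes Jak1 and Jak2, the transcription factor gene Stat3, the inhibitor gene Socs3, and the Pim kinase genes Pim1, Pim2 and Pim3. They are 9 of the 22180 genes that had a probe set annotated to exactly 1 symbol, and each was read from the probe set with the highest mean over the 12 arrays. The group was chosen in part by the measured increase of Pim2 between the arrays labelled KO/ERRb-wt and the arrays labelled KO/mock, so that comparison is given as values only, with nothing read from how many genes passed a threshold in it, and Pim2 is described without a test throughout. Gene expression was measured in K3, a mouse ES cell line, on Affymetrix whole-transcript arrays, as log2 values after robust multi-array averaging (RMA). The labels give 3 groups of 4 arrays. KO/ERRb-wt cells carried a knockout of Esrrb, which encodes the orphan nuclear receptor ERRb, and had received a lentivirus expressing ERRb (clones 12-1 and 12-3). KO/mock cells carried the same kind of knockout and the label mock (clones 8-3 and 8-4), and WT/mock cells had an unmodified Esrrb gene and the label mock (clones 5-2 and 5-5). Each clone gave 2 arrays, which the labels call biological replicates without saying whether they were separate cultures. Cells of all groups grew in serum-free N2B27 medium with LIF, the GSK3 inhibitor CH99021 and the MEK inhibitor PD0325901. For the last 3 days before RNA extraction the labels list N2B27, the same inhibitors and doxycycline, and do not list LIF. Neither the position of the lesion, nor the construct behind the label mock, nor the promoter that the virus carries is given in the sources used here.

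LIF binds a pair of receptor chains, the LIF receptor (Lifr) and gp130 (Il6st), whose tails hold the tyrosine kinases JAK1 and JAK2. These phosphorylate STAT3, which enters the nucleus and switches on genes that keep mouse ES cells self-renewing, together with Socs3, whose product binds gp130 and shuts the signal down. Pim kinases are serine/threonine kinases with no known need for activation by another kinase, so their activity follows their amount, and Pim1 is a classical STAT3 target that favours survival and growth.

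Promoter sequence is shown for Pim2, whose level separated the groups most widely. The RefSeq table (GRCm38.p6) held a promoter for all 9 genes, in 11 windows, since Lifr and Pim1 had more than 1 start. The 250 bases before the annotated start of Pim2, at chrX:7878056-7878305 on the plus strand, overlapped no annotated gene and held the octamer ATGCAAAT, the letters recognised by POU factors such as Oct4, once on each strand (in capitals), beginning 202 and 123 bases before the start.
Pim2 window: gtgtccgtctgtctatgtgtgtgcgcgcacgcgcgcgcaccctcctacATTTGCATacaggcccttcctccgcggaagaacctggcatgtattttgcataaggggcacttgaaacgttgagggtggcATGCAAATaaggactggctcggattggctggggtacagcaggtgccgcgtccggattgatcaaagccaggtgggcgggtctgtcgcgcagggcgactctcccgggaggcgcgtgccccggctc

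The octamer was searched for after this sequence had been read. Of all 32851 windows of this length in the table, 1.6% held it on either strand and 0.0974% held it more than once. Since the motif was picked from the Pim2 window itself, these shares do not measure how unusual that window is. Other searches, on both strands, were for TTCNNNGAA, the letters bound by STAT factors, present in 7.02% of all windows, and AAGGTCA, the core of the ERR binding site, present in 4.08%. No searched motif overlapped another in these windows. The STAT letters stood in the Socs3 window, and the ERR letters stood in a Lifr window and in the Pim3 window, read there on the opposite strand to the gene. They are shown in capitals with the bases around them.
Socs3, beginning 154 bases before the start: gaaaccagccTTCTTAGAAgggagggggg
Lifr, beginning 247 bases before the start: cggTGACCTTgcaaggctgg
Pim3, beginning 171 bases before the start: agccggagagTGACCTTcctcagcgcg
A match describes letters and not a bound site, and the arrays did not measure binding.

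The probe set of the targeted gene, Esrrb, went against the labels: it read 6.50 to 6.99 on the arrays labelled KO/ERRb-wt, 7.41 to 8.00 on those labelled KO/mock and 7.38 to 7.39 on those labelled WT/mock. The arrays labelled KO/ERRb-wt were below both other groups, with a log2 difference of -0.65 from WT/mock (limma, adjusted p = 0.00557). That difference did not pass without clone 12-3 (adjusted p = 0.0591). The arrays labelled KO/mock read above those labelled WT/mock, but this difference of 0.28 did not pass (limma, adjusted p = 0.324). Its adjusted p was at least 0.205 in the alternative settings. Where the probe set lies relative to the lesion and to the part carried by the virus is not known, and the cause of these Esrrb values was not tested. The groups are therefore named by their labels, and each direction is a difference between labelled arrays. Array medians lay between 5.00 and 5.07, correlations between arrays were 0.982 to 0.993, and no array repeated another. Of the ES cell markers Pou5f1, Sox2, Nanog, Zfp42, Utf1, Dppa5a and Fgf4, Fgf4 differed between KO/mock and WT/mock (limma, adjusted p = 0.00393), by -0.35 on the log2 scale. That was 14.3% of these markers, where 5.58% of all genes passed and 10.8% of genes with a mean log2 value of at least 6. Nanog, Utf1 and Fgf4 fell by 0.40, 0.27 and 0.44 in KO/ERRb-wt relative to WT/mock, 42.9% of these markers. In that comparison 20.8% of all genes passed, and 37.8% of genes with a mean log2 value of at least 6. Of 17 markers of fibroblasts, primitive endoderm, trophoblast, neural cells and mesoderm, 4 differed between KO/ERRb-wt and WT/mock, 23.5% of them and thus near the 20.8% of all genes: Thy1 and Cdx2 were higher by 0.35 and 0.54, and Gata4 and Sox1 were lower. Gata4 and Sox1 were also lower in KO/mock than in WT/mock, 11.8% of the 17, to be read against the 5.58% and 10.8% of that comparison. The part of these markers in the results below was not tested.

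**Figure D1:**
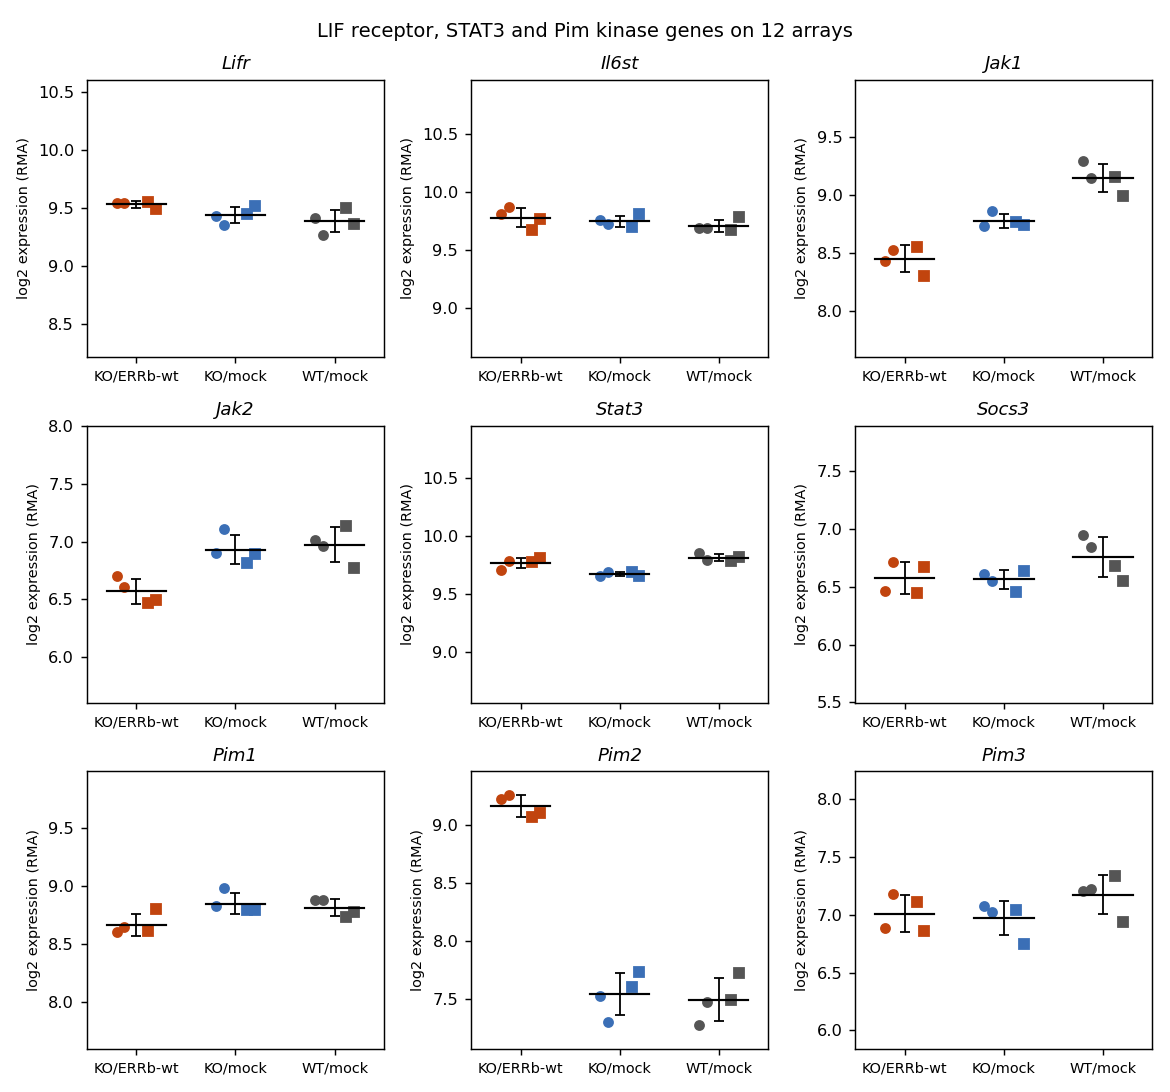
Log2 expression (RMA) of the 9 genes on each array, by labelled group; circles are the first clone of each group (12-1, 8-3, 5-2), squares the second (12-3, 8-4, 5-5), long bars are means and error bars SD over 4 arrays. All panels span the same log2 distance. Pim2 stands at 9.07 to 9.26 on the arrays labelled KO/ERRb-wt, above every other array, and Jak1 falls into 3 separate ranges.

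Of the 8 genes other than Pim2, 2 passed the test between KO/ERRb-wt and WT/mock, Jak1 and Jak2, both lower. In RNA from whole cultures, fewer cells with a transcript and less transcript per cell cannot be told apart. A gene passed, or was called, at a Benjamini-Hochberg adjusted p under 0.05 in a limma fit across all probe sets. In that comparison 20.8% of all 22180 genes were called, 8.82% higher and 12% lower, and 37.8% of the genes with a mean log2 value of at least 6, where all 9 genes lie. The members' share, 25% of 8, was thus near the background. Between KO/mock and WT/mock 1 of the 8 was called, Jak1, lower, against 5.58% of all genes (2.11% higher, 3.47% lower) and 10.8% of those with a mean of at least 6. The median difference of the 8 genes was -0.16 in KO/ERRb-wt relative to WT/mock, against 0.03 over all genes, and -0.09 in KO/mock relative to WT/mock, against 0.00 over all genes. These comparisons share the WT/mock arrays, so they are not independent. Between KO/ERRb-wt and KO/mock, which served to choose the members, 2 of the 9 members lay past the same threshold, and 4.4% of all genes did, 1.24% higher and 3.17% lower. That member count fell to 0 on clone averages and nothing is read from it.

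**Figure D2:**
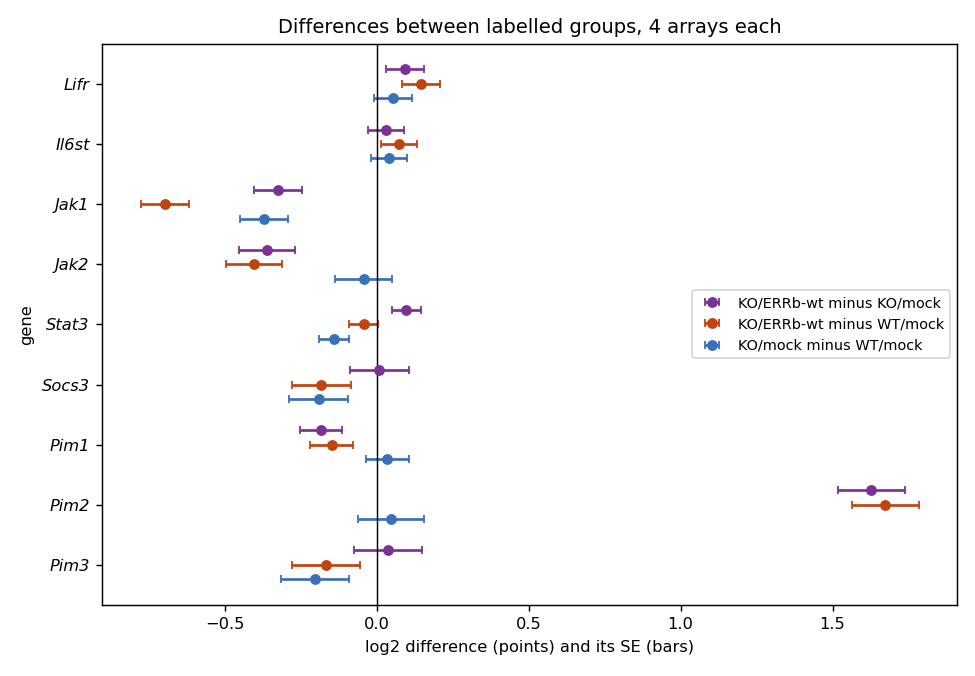
Log2 difference between labelled groups for each of the 9 genes (points) with its standard error (bars), 4 arrays against 4. Pim2 lies at 1.63 against KO/mock and 1.67 against WT/mock, Jak1 lies below 0 in all 3 comparisons, and the other genes lie between -0.40 and 0.15.

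For the receptor chains Lifr and Il6st the 3 groups overlapped, and neither gene was called. Lifr, which binds LIF, read 9.54, 9.55, 9.55 and 9.49 on the arrays labelled KO/ERRb-wt, 9.43, 9.36, 9.44 and 9.52 on KO/mock arrays and 9.41, 9.27, 9.50 and 9.36 on WT/mock arrays. The KO/ERRb-wt arrays sat at the upper end of the values. The difference was 0.15 between KO/ERRb-wt and WT/mock (95% interval 0.01 to 0.28, limma, adjusted p = 0.147) and 0.05 between KO/mock and WT/mock (interval -0.08 to 0.19, adjusted p = 0.780). Il6st, the chain shared with the receptors of interleukin-6 and its relatives, read 9.81, 9.87, 9.67 and 9.77 on KO/ERRb-wt arrays, 9.76, 9.73, 9.70 and 9.81 on KO/mock arrays and 9.69, 9.69, 9.67 and 9.78 on WT/mock arrays. Its 3 ranges overlapped along most of their length. The intervals of its difference ran from -0.06 to 0.20 in KO/ERRb-wt (adjusted p = 0.479) and from -0.09 to 0.17 in KO/mock (adjusted p = 0.826), each against WT/mock, so larger changes than 0.20 lay outside them.

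Jak1, the kinase on which gp130 signalling chiefly depends, was lowest on the arrays labelled KO/ERRb-wt, intermediate on KO/mock arrays and highest on WT/mock arrays. It read 8.43, 8.52, 8.55 and 8.30 on KO/ERRb-wt arrays, 8.74, 8.86, 8.77 and 8.74 on KO/mock arrays and 9.30, 9.15, 9.16 and 8.99 on WT/mock arrays. No range overlapped another, and the clone means kept the same order, at 8.48 and 8.43 in KO/ERRb-wt, 8.80 and 8.75 in KO/mock, and 9.22 and 9.08 in WT/mock. In KO/ERRb-wt it was 0.617 times its WT/mock level, a log2 difference of -0.70 ± 0.08 (SE; limma, adjusted p = 0.000148). This call held under all 29 alternative settings, with an adjusted p of at most 0.0192. In KO/mock it was 0.772 times its WT/mock level, a difference of -0.37 ± 0.08 (adjusted p = 0.0221), which was less firm. The KO/mock call ended on clone averages, without clone 5-2, 8-3 or 8-4, and without any of 6 single arrays, with an adjusted p of up to 0.190. Those arrays were KO/mock clone 8-3 replicate 1 (adjusted p = 0.0603), clone 8-4 replicate 1 (0.0579) and replicate 2 (0.0671), and WT/mock clone 5-2 replicate 1 (0.0767) and replicate 2 (0.0582) and clone 5-5 replicate 1 (0.0530). The difference itself stayed between -0.45 and -0.30 in all settings. Jak1 differed by -0.32 ± 0.08 between KO/ERRb-wt and KO/mock, where no test is given.

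Jak2, the partner kinase, was lowest on the arrays labelled KO/ERRb-wt. It read 6.70, 6.61, 6.47 and 6.50 there, 6.91, 7.11, 6.82 and 6.89 on KO/mock arrays, and 7.02, 6.97, 7.14 and 6.77 on WT/mock arrays. Every KO/ERRb-wt array was below every other array, while KO/mock and WT/mock overlapped. Its level in KO/ERRb-wt was 0.756 times that in WT/mock, a difference of -0.40 ± 0.09 (adjusted p = 0.0115). The call held without any single array and ended on clone averages (adjusted p = 0.0709), without clone 12-3 (0.109) and without clone 5-2 (0.0872). Between KO/mock and WT/mock the difference was -0.04 (interval -0.25 to 0.16, adjusted p = 0.896). As a value only, KO/ERRb-wt differed from KO/mock by -0.36 ± 0.09.

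Stat3, which carries the signal to the nucleus, was called in neither comparison with WT/mock. It read 9.71, 9.78, 9.78 and 9.81 on KO/ERRb-wt arrays, 9.65, 9.69, 9.68 and 9.66 on KO/mock arrays and 9.86, 9.79, 9.79 and 9.82 on WT/mock arrays. The 4 KO/mock arrays lay within 0.04 of each other and below all the others, and the other groups overlapped. KO/mock differed from WT/mock by -0.14 ± 0.05, which did not pass (adjusted p = 0.157). It passed where dim probe sets were left out (adjusted p = 0.0416) and with a trended, robust prior (0.0335). Between KO/ERRb-wt and WT/mock it was -0.04 (interval -0.15 to 0.06, adjusted p = 0.621). Socs3, the feedback inhibitor that STAT3 induces, read 6.46, 6.72, 6.45 and 6.67 on KO/ERRb-wt arrays, 6.61, 6.55, 6.46 and 6.64 on KO/mock arrays, and 6.94, 6.85, 6.68 and 6.55 on WT/mock arrays. The WT/mock arrays of clone 5-2 were the highest, and the other WT/mock clone lay within the other groups' ranges. Neither of its differences from WT/mock passed, at -0.18 in KO/ERRb-wt (interval -0.39 to 0.03, adjusted p = 0.250) and -0.19 in KO/mock (interval -0.40 to 0.02, adjusted p = 0.371). A second, dimmer Socs3 probe set gave -0.16 in both comparisons and was not called either.

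The Pim kinase genes lie on different chromosomes, Pim1 on 17, Pim2 on X and Pim3 on 15 in RefSeq, and Pim2 had the widest differences between groups. Pim2 read 9.23, 9.26, 9.07 and 9.10 on the arrays labelled KO/ERRb-wt, 7.52, 7.29, 7.60 and 7.73 on KO/mock arrays and 7.27, 7.47, 7.49 and 7.72 on WT/mock arrays. Each KO/ERRb-wt array was above all 8 others by at least 1.34 log2 units, and KO/mock and WT/mock overlapped. Both KO/ERRb-wt clones were high, with means of 9.24 and 9.08, against 7.41 and 7.67 in the KO/mock clones and 7.37 and 7.61 in the WT/mock clones. Its level in KO/ERRb-wt was 3.09 times that in KO/mock (log2 difference 1.63 ± 0.11) and 3.19 times that in WT/mock (1.67 ± 0.11). KO/mock differed from WT/mock by 0.05 ± 0.11. The increase over KO/mock ranked 1 of 22180 genes, ahead of Pde2a at 1.41 and Itga1 at 1.26, which is how Pim2 came to be chosen. Against WT/mock its increase ranked 15.

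Pim1 and Pim3 differed by far smaller amounts. Pim1, the family member best known as a LIF and STAT3 target, read 8.60, 8.65, 8.61 and 8.80 on KO/ERRb-wt arrays, 8.83, 8.99, 8.79 and 8.79 on KO/mock arrays and 8.88, 8.88, 8.73 and 8.77 on WT/mock arrays. Its KO/ERRb-wt arrays were the lower ones, the opposite side from Pim2, and overlapped both other groups. The difference from WT/mock was -0.15 in KO/ERRb-wt (interval -0.30 to 0.00, adjusted p = 0.193) and 0.03 in KO/mock (interval -0.12 to 0.19, adjusted p = 0.889). A second, dimmer Pim1 probe set gave -0.00 and 0.22 and was called in neither comparison. Pim3 read 6.89, 7.18, 7.11 and 6.86 on KO/ERRb-wt arrays, 7.07, 7.03, 7.04 and 6.75 on KO/mock arrays and 7.21, 7.22, 7.33 and 6.94 on WT/mock arrays. All groups overlapped, and the differences from WT/mock were -0.17 in KO/ERRb-wt (interval -0.41 to 0.07, adjusted p = 0.366) and -0.20 in KO/mock (interval -0.45 to 0.04, adjusted p = 0.416). The interval of each Pim1 and Pim3 difference from WT/mock therefore ended below 0.2, far from the 1.67 of Pim2.

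The genes beside Pim2 also read higher on KO/ERRb-wt arrays than on KO/mock arrays, which is given as a description. The 12 neighbours, 6 on each side in RefSeq order with a mean of at least 6, differed by 0.26 to 1.15 between KO/ERRb-wt and KO/mock (median 0.50). Against WT/mock the neighbours ranged from -0.28 to 0.58 (median 0.23), below the 1.67 of Pim2, and 4 were called higher and 1 lower, where 37.8% of genes with a mean of at least 6 were called. The 4 were Tfe3 (0.58), Gripap1 (0.26), Otud5 (0.25) and Tbc1d25 (0.38), and the 1 lower was Praf2 (-0.28). The neighbours were instead lower in KO/mock than in WT/mock, by a median of -0.28, and 6 were called, where 10.8% of genes with a mean of at least 6 were. They were Was (-1.18), the actin regulator mutated in Wiskott-Aldrich syndrome, Hdac6 (-0.76), a cytoplasmic deacetylase, Praf2 (-0.54), Kcnd1 (-0.41), Timm17b (-0.29) and Otud5 (-0.27). Was read 5.32 to 5.61 and Kcnd1 5.55 to 5.83 on KO/mock arrays, so both were under 6 in that group. Pim2 itself, at 0.05, was not lower in KO/mock than in WT/mock. The level of Pim2 in KO/mock resembled that in WT/mock while many neighbours differed. In KO/ERRb-wt the level of Pim2 exceeded that in WT/mock by more than any neighbour did. Pim2 was chosen for its increase on these KO/ERRb-wt arrays and the neighbours were not, so nothing is read from that contrast. For the other 8 genes the 12 nearest neighbours had medians between -0.15 and 0.11 in KO/ERRb-wt against WT/mock and between -0.11 and 0.07 in KO/ERRb-wt against KO/mock. None of those 8 genes lies on the X chromosome, so their neighbours cannot tell this stretch from the rest of that chromosome. Whether the state of this stretch, or of the X chromosome at large, has a part in the level of Pim2 was not tested.

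**Figure D3:**
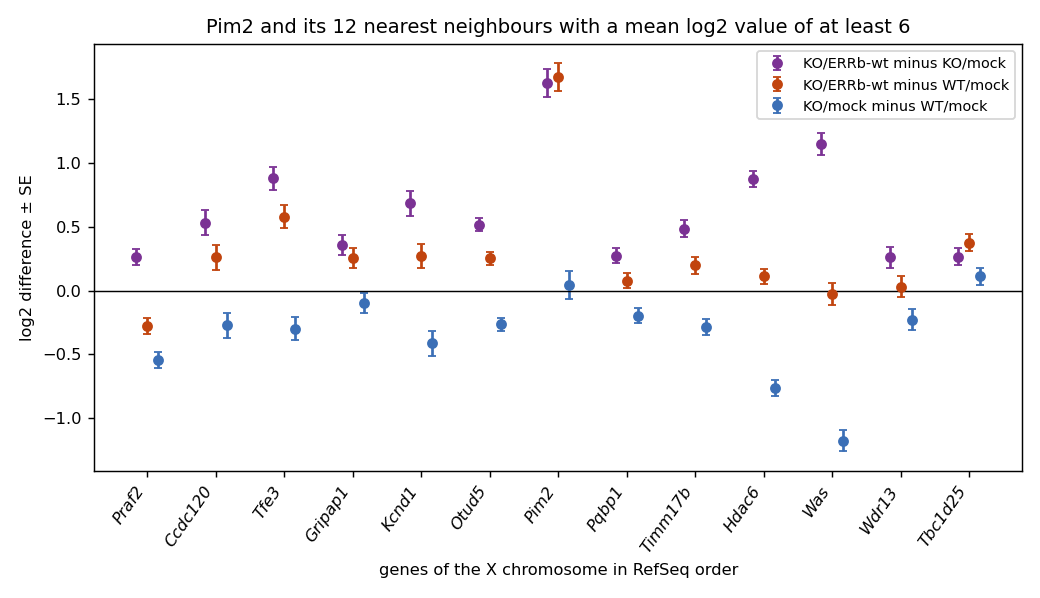
Log2 difference (points) and standard error (bars) of Pim2 and its 12 neighbours on the X chromosome, in RefSeq order and not to scale in distance. Against KO/mock every neighbour lies above 0, against WT/mock the neighbours lie between -0.28 and 0.58, and Pim2 stands at 1.63 and 1.67.

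Among 9104 genes with a mean of at least 6, those whose log2 values followed Pim2 most closely over the 12 arrays were Ptgr1 (Pearson r = 0.973), Esrp1 (0.971), Impact (0.970), Itga1 (0.968) and Plekhh2 (0.968). None of them lies on the X chromosome. The 12 arrays fall into 3 groups, so these coefficients mostly reflect differences between groups, and they are given without a test. The genes most like Jak1 were Rims2 (0.991) and the laminin receptor gene Itga6 (0.988), and those most like Jak2 were Arrdc3 (0.961) and Rnf123 (0.956). Jak1 and Jak2 followed each other with r = 0.80 and ran opposite to Pim2, with r = -0.84 and -0.88. The closest genes to the members with small differences had lower coefficients: Slc12a2 (0.922) and Pdgfc (0.920) for Lifr, Gja1 (0.901) and Tbc1d20 (0.891) for Il6st, and Klf9 (0.895) and Jag2 (0.889) for Stat3. For Socs3 they were Scrn3 (0.893) and Cables2 (0.869), for Pim1 Ephb4 (0.916) and Clic4 (0.899), and for Pim3 Nfic (0.854) and Marveld1 (0.845).

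Around the 9 genes, 59 of 63 listed pathway genes were measured. Of the 59, 23 were called between KO/ERRb-wt and WT/mock, 12 higher and 11 lower, a share of 39% against 20.8% of all genes and 37.8% of genes with a mean of at least 6, a level that some of the 59 do not reach. Between KO/mock and WT/mock 10 were called, 3 higher and 7 lower, a share of 16.9% against 5.58% of all genes and 10.8% of those with a mean of at least 6. The median difference of the 59 was -0.04 in KO/ERRb-wt and -0.03 in KO/mock, each against WT/mock. By list, the share called between KO/ERRb-wt and WT/mock was 75% of 4 receptor genes, 33.3% of 6 kinase and STAT genes and 30% of 10 Pim substrate genes, to be read against the same 20.8% and 37.8%. All lists were chosen with earlier results of these data known, so shares given here and below do not test the lists as sets.

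Of 6 measured ligand genes, 2 were higher in KO/ERRb-wt than in WT/mock, a share of 33.3% where 8.82% of all genes were higher and 20.8% were called in either direction. Osm, the gene of oncostatin M, a cytokine of the LIF family, read 6.46, 6.55, 6.27 and 6.31 on KO/ERRb-wt arrays, 5.55, 5.63, 6.01 and 6.13 on KO/mock arrays and 4.84, 5.31, 5.00 and 5.21 on WT/mock arrays. The 3 ranges did not overlap. It rose by 1.31 ± 0.14 in KO/ERRb-wt (adjusted p = 0.000114) and by 0.74 ± 0.14 in KO/mock (adjusted p = 0.0135), each against WT/mock. Osm was dim, with a mean under 6. Its WT/mock values lay near the array medians of 5.00 to 5.07, and no detection call accompanies them. Ctf1, the gene of cardiotrophin 1, was higher by 0.38 in KO/ERRb-wt. Lif itself differed by 0.15 in KO/ERRb-wt and 0.11 in KO/mock, and Il11 by 0.20 and -0.04, and neither was called. Of 4 measured receptor genes, Cntfr (0.45) and Il6ra (0.42), which bind ciliary neurotrophic factor and interleukin-6, were higher in KO/ERRb-wt than in WT/mock and Il27ra was lower (-0.36), while Osmr, the oncostatin M receptor gene, differed by 0.10 and was not called. Il27ra was also dim, with a mean under 6. Between KO/mock and WT/mock limma called 0 of the 4 receptor genes, and 3 of them had an unadjusted p under 0.05, as had 4509 of all 22180 genes.

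Among 6 measured kinases and STAT genes, Stat5b and Stat2 were lower in KO/ERRb-wt than in WT/mock. Stat5b read 6.03, 6.16, 6.42 and 5.93 on KO/ERRb-wt arrays, 6.39, 6.70, 6.22 and 6.40 on KO/mock arrays and 6.97, 7.29, 7.10 and 6.97 on WT/mock arrays. The WT/mock arrays were above all others, and the other groups overlapped. It fell by 0.95 ± 0.13 in KO/ERRb-wt (adjusted p = 0.000466) and by 0.65 ± 0.13 in KO/mock (adjusted p = 0.0146). Stat2, a partner in interferon signalling, fell by 0.58 ± 0.09 in KO/ERRb-wt (adjusted p = 0.00134). Stat4 was higher in KO/mock than in WT/mock by 0.45 ± 0.07 (adjusted p = 0.00497), with 5.77 to 5.87 on KO/mock arrays and 5.24 to 5.56 on WT/mock arrays, while KO/ERRb-wt arrays read 5.28 to 5.45. Stat4 was thus dim, under 6 on every array. Stat6 differed by -0.20 in each comparison and was not called.

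Of 15 inhibitor genes, 5 were called between KO/ERRb-wt and WT/mock, and this 33.3% lay between the 20.8% of all genes and the 37.8% of genes with a mean of at least 6. Socs2, a relative of Socs3, rose by 0.62 ± 0.12 (adjusted p = 0.00429), and the phosphatase genes Ptpn6 and Ptpn1 and the STAT inhibitor gene Pias4 were higher by 0.29, 0.24 and 0.20. Socs4 fell by 0.57 ± 0.07 (adjusted p = 0.000270). Socs4 was also the inhibitor called between KO/mock and WT/mock, where it fell by 0.44 ± 0.07 (adjusted p = 0.00417).

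**Figure D4:**
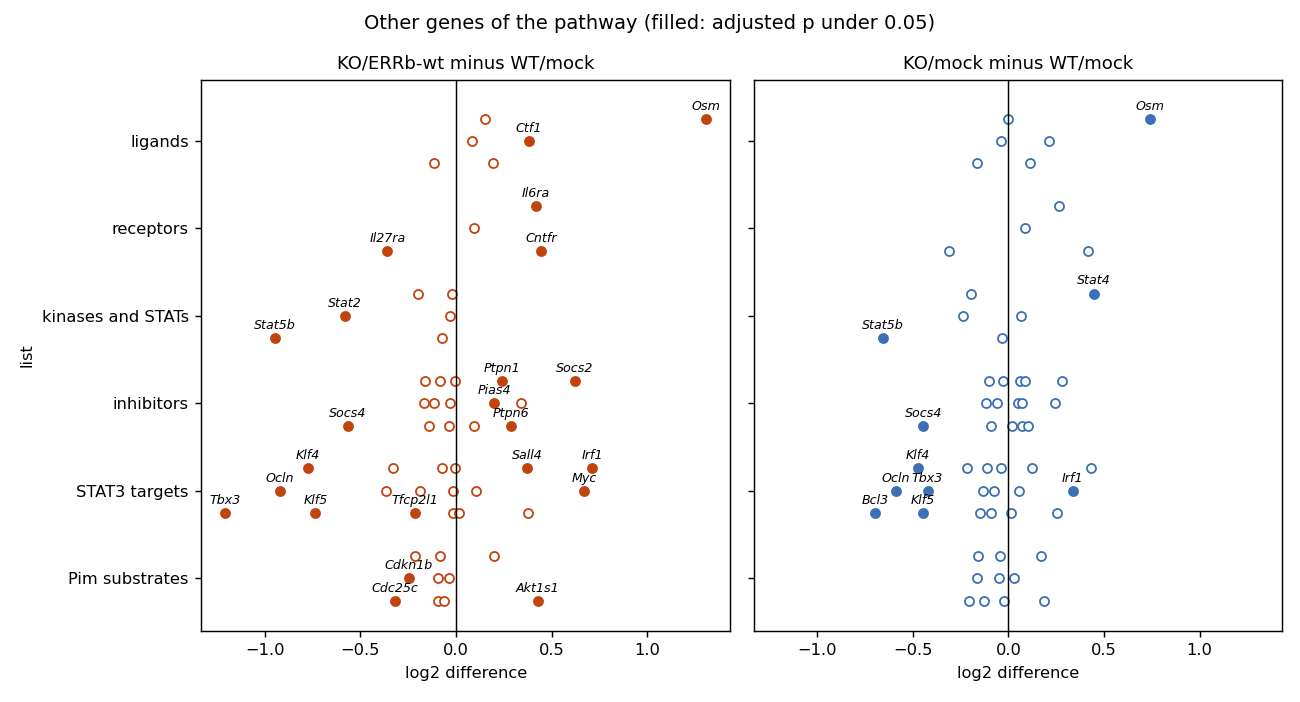
Log2 differences of the 59 measured pathway genes from WT/mock, in KO/ERRb-wt (left) and KO/mock (right), by list; filled points passed at an adjusted p under 0.05 and are named, and the vertical offset within a list carries no value. Osm lies farthest to the right and Tbx3, at -1.21 in KO/ERRb-wt, farthest to the left.

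Of 18 genes listed as STAT3 targets, 8 were called between KO/ERRb-wt and WT/mock, 5 lower and 3 higher, and 6 between KO/mock and WT/mock, 5 lower and 1 higher. The shares were 44.4%, against 20.8% of all genes and 37.8% of those with a mean of at least 6, and 33.3%, against 5.58% and 10.8%. This list was chosen with earlier results of these data known, so the shares do not test STAT3 targets as a set. Klf4, Klf5 and Tbx3, transcription factor genes that support naive ES cells, and Ocln, a tight junction gene, were lower in both comparisons. Tbx3 read 8.73, 8.74, 8.89 and 8.88 on KO/ERRb-wt arrays, 9.61, 9.63, 9.60 and 9.53 on KO/mock arrays and 10.10, 10.00, 10.01 and 9.95 on WT/mock arrays. These ranges were apart from each other. It fell by 1.21 ± 0.06 in KO/ERRb-wt (adjusted p = 1.46e-06) and by 0.42 ± 0.06 in KO/mock (adjusted p = 0.00228). Klf4 fell by 0.78 and 0.47, Klf5 by 0.74 and 0.45, and Ocln by 0.92 and 0.59, in KO/ERRb-wt and in KO/mock against WT/mock. The naive pluripotency factor gene Tfcp2l1 fell by 0.21 in KO/ERRb-wt (adjusted p = 0.0170), and Bcl3 fell by 0.70 in KO/mock (adjusted p = 0.0101). The Tfcp2l1 call ended without clone 5-5 or 12-1, and the Bcl3 call without clone 5-2 or 8-4. Other listed targets went the opposite way: Irf1, an interferon-response factor gene, rose by 0.71 ± 0.06 in KO/ERRb-wt (adjusted p = 1.64e-05) and by 0.34 ± 0.06 in KO/mock (adjusted p = 0.00619), and Sall4 and Myc were higher by 0.37 and 0.67 in KO/ERRb-wt. The Sall4 call ended on the mean of the gene's probe sets (0.26, adjusted p = 0.108), and the Myc difference was 0.41 without clone 5-2 (adjusted p = 0.308). The other 9 listed targets were called in neither comparison.

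Of 10 genes whose products Pim kinases phosphorylate, Cdc25c and Cdkn1b, which act in the cell cycle, were lower in KO/ERRb-wt than in WT/mock (-0.32 and -0.25), and Akt1s1, the gene of an mTOR complex inhibitor, was higher (0.43). Eif4ebp1, the gene of a translation repressor, differed by -0.21 and was not called (adjusted p = 0.0510). Between KO/mock and WT/mock limma called 0 of the 10, and 3 had an unadjusted p under 0.05, against the 4509 of 22180 genes given above. The arrays measure transcripts, so the activity of Pim kinases on these products was not measured.

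Of the 23 pathway calls between KO/ERRb-wt and WT/mock, 16 held without any single array, 12 without any single clone and 10 on clone averages. Those 10 were Osm, Stat2, Stat5b, Socs4, Klf4, Klf5, Tbx3, Irf1, Ocln and Akt1s1. The Tfcp2l1 and Cntfr calls held without any single array but ended without clone 5-5 or 12-1. In the same way Ptpn6 ended without clone 5-2 or 12-3, and Cdc25c without clone 5-2. The Ctf1 call ended without KO/ERRb-wt clone 12-3 replicate 1 or 2, or WT/mock clone 5-2 replicate 2 or clone 5-5 replicate 1 (adjusted p of 0.0537 to 0.0760). The Il6ra call ended without KO/ERRb-wt clone 12-1 replicate 1 or 2 or clone 12-3 replicate 2, KO/mock clone 8-3 replicate 1 or 2 or clone 8-4 replicate 2, or WT/mock clone 5-2 replicate 1 or 2 (0.0545 to 0.105). It also ended with the replicate block (0.0635), median centring (0.0586), array weights (0.0552), only the groups compared (0.0821) and without clone 8-3, 8-4, 12-1, 12-3 or 5-2, and without clone 5-2 the difference was 0.19 (0.300), against 0.65 without clone 5-5, where the call held (0.00444). The Il27ra call ended without KO/ERRb-wt clone 12-1 replicate 1 or 2 or clone 12-3 replicate 2, KO/mock clone 8-3 replicate 1 or clone 8-4 replicate 1, or WT/mock clone 5-2 replicate 1 or 2 or clone 5-5 replicate 1 (0.0519 to 0.110). It also ended with the replicate block (0.0573), only the groups compared (0.0767), quantile normalization (0.0540) and without clone 12-1, 8-3, 8-4, 5-2 or 5-5, and without clone 12-1 the difference was -0.23 (0.141). The Pias4 call ended without KO/ERRb-wt clone 12-1 replicate 2 or clone 12-3 replicate 1 or 2, or WT/mock clone 5-2 replicate 1 or 2 or clone 5-5 replicate 1 (0.0627 to 0.0798), and with median centring (0.0894). The Ptpn1 call ended without KO/ERRb-wt clone 12-1 replicate 2 (0.0556) or WT/mock clone 5-2 replicate 2 (0.0667). The Myc call ended without any 1 of the 4 KO/ERRb-wt arrays, or without WT/mock clone 5-2 replicate 1 or 2 or clone 5-5 replicate 1 (0.0552 to 0.109). The Cdkn1b call ended without KO/ERRb-wt clone 12-1 replicate 1 or 2 or clone 12-3 replicate 2, or WT/mock clone 5-2 replicate 1 or clone 5-5 replicate 1 (0.0544 to 0.0753), and after quantile normalization (0.0568). All 10 pathway calls between KO/mock and WT/mock held without any single array and none held on clone averages, while 4 of them, those of Klf4, Klf5, Tbx3 and Ocln, held without any single clone.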

How the data were processed

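The deposited log2 expression values of 41345 probe sets on 12 Affymetrix MoGene 2.0 ST arrays come from the authors' RMA processing. Affymetrix Expression Console is the program named, without a version, per the submitters' processing notes. RMA sets all arrays to 1 distribution, which hides any shift common to most genes, and no detection call accompanies a value. Gene names came from the platform annotation, which gave exactly 1 symbol for 23521 probe sets and several for 1814, and from RefSeq (GRCm38.p6), which also gave chromosomes, gene order and promoters. A gene was read from its 1-symbol probe set with the highest mean.

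All 12 arrays entered 1 linear model of the 3 groups with clone as a random block (limma 3.58.1, statmod 1.5.0 and R 4.3.3; clone correlation 0.0286), with two-sided tests adjusted by Benjamini-Hochberg over all probe sets. No filter on low values was used. Intervals are 95% intervals from that model. The code was tested on simulated data. With 4 arrays from 2 clones a group, the number of clones limits the precision, and p-values measure the spread between these arrays, which may be partly technical; a difference between groups also holds whatever else distinguishes those clones.

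The members and lists were chosen with earlier results of these data known. Named are the 9 members, Esrrb, from each list every gene called in a tested comparison, topped up to 4 by smallest adjusted p, the 12 neighbours of Pim2 as far as called, and the closest genes by Pearson r (5 for Pim2, 2 for each other member). The lists are ligands, receptors, kinases and STATs, inhibitors, STAT3 targets, Pim substrates, and markers of ES cells, fibroblasts, primitive endoderm, trophoblast, neural cells and mesoderm. Listed genes without a 1-symbol probe set under the listed name are not analysed here. The alternatives, 29 in all, were a fit without the clone block, a fit on clone averages, a replicate block, a fit of only the groups compared, quantile normalization, median centring, dim probe sets (mean under 6) left out, array weights, a trended robust prior, repeated rows left out, the mean of a gene's probe sets, and each array and each clone left out.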

Additional observations from a re-analysis of the deposited data

Results flagged for a closer look

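A sample is listed here where its gap to the nearest other array of its group, divided by the range of the 4 arrays, was above Dixon's 95% critical value. Of 204 groups of 4 arrays (68 genes), 13 had such an array, and chance gives about 1 in 20. Among the members, KO/ERRb-wt clone 12-3 replicate 2 was low for Lifr, at 9.49 against 9.54 to 9.55 on the other arrays of its group. WT/mock clone 5-5 replicate 2 was high for Il6st, at 9.78 against 9.67 to 9.69. KO/mock clone 8-4 replicate 2 was low for Pim3, at 6.75 against 7.03 to 7.07. Lifr, Il6st and Pim3 were not called in a tested comparison.

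Of the pathway genes, KO/mock clone 8-3 replicate 1 was high for Ctf1 (7.70) and Ptpn1 (6.85), and KO/mock clone 8-3 replicate 2 was high for Klf4 (9.25). KO/ERRb-wt clone 12-1 replicate 1 was low for Ptpn6 (9.18), and KO/ERRb-wt clone 12-3 replicate 2 was high for Bcl3 (7.26). Among the neighbours of Pim2, KO/ERRb-wt clone 12-3 replicate 2 was high for Tfe3 (9.86) and WT/mock clone 5-5 replicate 2 was high for Wdr13 (6.71). Among the genes most like a member, KO/mock clone 8-3 replicate 2 was high for Ephb4 (8.37), and WT/mock clone 5-5 replicate 2 was high for Impact (10.7) and low for Nfic (6.91).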

How the results depend on the processing

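Of the members other than Pim2, 1 was called between KO/mock and WT/mock, and the count was 0 on clone averages and without clone 5-2, 8-3 or 8-4 (limma, with 1 to 2 members at an unadjusted p under 0.05), 2 with dim probe sets left out or a trended robust prior, and 0 to 1 with single arrays left out. Between KO/ERRb-wt and WT/mock 2 were called, 1 on clone averages, without clone 5-2 or without clone 12-3, and 2 without any single array. Of the 9 members, 2 met the threshold between KO/ERRb-wt and KO/mock; the count was 0 on clone averages, 1 with the replicate block, with only those groups fitted, after quantile normalization or without clone 8-3, 8-4, 12-1 or 12-3, and 1 to 3 with single arrays left out.

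The 10 pathway calls between KO/mock and WT/mock became 0 on clone averages (16 at an unadjusted p under 0.05) and 4 without clone 5-2, and 10 to 12 with single arrays left out. The 23 between KO/ERRb-wt and WT/mock became 10 on clone averages, 14 without clone 5-2 and 15 without clone 12-1, and 17 to 26 with single arrays left out. Between KO/ERRb-wt and KO/mock 8 pathway genes lay past the threshold, a count from which nothing is read, and this became 0 on clone averages, 5 with only those groups fitted or after quantile normalization, 1 without clone 8-3, 3 without clone 12-1 and 2 without clone 12-3, and 3 to 8 with single arrays left out. No called member or pathway gene changed direction under any of the 29 alternatives. The cause of these changes was not tested. Clone averages and left-out arrays or clones also bring a smaller number of samples, and its part was not separated from the spread between clones.

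Over all genes the counts were 1238 between KO/mock and WT/mock (3 on clone averages, 804 with only those groups fitted, 400 without clone 5-2, 418 without clone 8-4, 682 to 1421 with single arrays left out), 4617 between KO/ERRb-wt and WT/mock (1501 on clone averages, 2369 without clone 5-2, 2918 without clone 12-3) and 977 between KO/ERRb-wt and KO/mock (0 on clone averages, 553 with only those groups fitted, 1545 with dim probe sets left out, 106 without clone 8-3, 453 without clone 12-1, 244 without clone 12-3, 406 to 1008 with single arrays left out). On clone averages 3256 genes had an unadjusted p under 0.05 between KO/ERRb-wt and KO/mock.

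Replicate numbers are given within clones. Deviations from group means correlated by 0.025 on average between arrays of the same number (range -0.069 to 0.194) and by -0.025 between others. Such deviations cancel within a group, so the second average largely follows from the first. Whether arrays of the same number share a batch was not tested. With the replicate number as a block, 10 pathway genes were called between KO/mock and WT/mock and 21 between KO/ERRb-wt and WT/mock, and apart from the member count between KO/ERRb-wt and KO/mock given above this replicate block moved no count by over 1.5 times. Quantile normalization and median centring moved the median of all genes by less than 0.04. With 2 clones a group and no detection calls, small differences and dim genes are the least secure.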
